A study of Homo sapiens with 24 samples.

Results

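The UGT2B cluster is a run of UDP-glucuronosyltransferase genes on human chromosome 4, and it was followed here through the open chromatin peaks that overlap chr4:69350000-70600000 of the hg19 genome build. Of the 4683186 peaks in the 24 peak lists, 2638 overlapped this interval of 1250000 bp, and 271227 lay elsewhere on chromosome 4. Merging overlapping peaks of all libraries gave 484 separate regions in the interval, out of 746786 over the genome. The interval was set by the positions of UGT2B17, UGT2B15, UGT2B10, UGT2B7, UGT2B11, UGT2B28 and UGT2B4. Their order along the chromosome in RefSeq is UGT2B17, UGT2B15, UGT2B10, UGT2A3, UGT2B7, UGT2B11, UGT2B28, UGT2B4 and the overlapping UGT2A1 and UGT2A2. The gene tables at hand are placed on GRCh38 and no coordinates were carried between builds, so a peak is named by its hg19 position and is not assigned to a gene.

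UDP-glucuronosyltransferases join glucuronic acid to small lipophilic molecules, which makes them soluble and ends their activity. In prostate cells UGT2B15 and UGT2B17 glucuronidate dihydrotestosterone (DHT), testosterone and their metabolites, and both are known as genes whose transcripts fall when the androgen receptor is active. UGT2B28 also acts on steroids, UGT2B7 on opioids and oestrogens, UGT2B4 on bile acids, and UGT2B10 joins glucuronic acid to the nitrogen of nicotine and related amines. UGT2B11 is a close relative of UGT2B10 and UGT2B28. FAIRE (formaldehyde-assisted isolation of regulatory elements) recovers the DNA that is not tied up in nucleosomes, so a FAIRE peak marks open chromatin, not transcription. In cells measured in bulk, a site open in fewer cells and a site less open in each cell cannot be told apart.

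The libraries came from LNCaP, an androgen-sensitive prostate cancer cell line, and from RES-A, a single LNCaP-derived subline grown in rising doses of the androgen receptor antagonist enzalutamide (ENZ) until it was resistant. Before treatment both were starved of androgen for 3 days in 5% dextran-coated charcoal (DCC) serum, with 10 µM ENZ for RES-A and without it for LNCaP. Each was then given DMSO as the vehicle, 10 nM DHT, 10 µM ENZ, or DHT+ENZ for 18 h, which makes 8 groups with 3 biological replicates each. The serum was the same in all groups, and prior exposure to ENZ cannot be told apart from the subline.

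Several UGT2B genes are close copies of each other, which bears on any short-read measurement of this interval. In the RefSeq tables (GRCh38.p14), 4 of the 7 genes had an upstream sequence, and the 250 bases before the start of each are shown because they show how near the copies are. Capitals mark runs of at least 20 bases found unchanged in another of the 4.
UGT2B15, chr4:68670653-68670902, minus strand: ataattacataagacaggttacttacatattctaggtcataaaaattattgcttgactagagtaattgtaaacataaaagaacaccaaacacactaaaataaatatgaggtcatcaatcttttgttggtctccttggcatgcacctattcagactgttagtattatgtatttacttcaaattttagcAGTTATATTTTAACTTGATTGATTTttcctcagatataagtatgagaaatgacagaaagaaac
UGT2B10, chr4:68815744-68815993, plus strand: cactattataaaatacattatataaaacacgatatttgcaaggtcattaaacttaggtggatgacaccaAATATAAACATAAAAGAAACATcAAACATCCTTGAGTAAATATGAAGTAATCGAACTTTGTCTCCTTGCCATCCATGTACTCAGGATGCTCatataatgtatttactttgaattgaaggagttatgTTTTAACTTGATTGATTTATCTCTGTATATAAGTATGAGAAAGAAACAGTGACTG
UGT2B11, chr4:69214749-69214998, minus strand: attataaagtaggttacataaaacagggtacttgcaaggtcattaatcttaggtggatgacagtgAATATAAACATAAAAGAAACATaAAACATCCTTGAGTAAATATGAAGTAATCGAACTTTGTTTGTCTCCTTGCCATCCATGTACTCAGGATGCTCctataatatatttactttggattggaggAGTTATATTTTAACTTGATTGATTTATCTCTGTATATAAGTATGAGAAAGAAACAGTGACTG
UGT2B7, chr4:69096224-69096473, plus strand: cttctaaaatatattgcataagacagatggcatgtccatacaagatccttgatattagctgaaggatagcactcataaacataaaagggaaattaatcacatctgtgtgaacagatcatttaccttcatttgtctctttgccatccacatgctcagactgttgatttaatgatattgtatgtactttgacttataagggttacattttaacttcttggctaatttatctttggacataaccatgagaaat
The UGT2B10 and UGT2B11 sequences were identical in 229 of 254 alignment columns (90.2%), with 145 and 156 of their 250 bases in such runs. UGT2B15 was 70.6% identical to UGT2B10 and 71.4% to UGT2B11 and shared 25 bases in one run. UGT2B7 shared no run of that length, and its identity to the others lay between 61.3% and 65.1%.

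Both strands of these 250 bases were searched for 3 short strings, chosen after the sequences had been read. The half-site AGAACA, which is the core of steroid receptor elements, occurred in UGT2B15 and in 12.4% of the 35116 promoters in the table. The forkhead-type string TGTTTAC occurred in UGT2B15 and in 2.98% of all promoters. Its variant TATTTAC occurred in UGT2B15, UGT2B10 and UGT2B11, against 2.39% of all promoters. The UGT2B10 and UGT2B11 copies lie in nearly identical sequence and are not separate occurrences. A copy starts 83 bases before the start in UGT2B15 and 82 bases before it in UGT2B10 and UGT2B11, so the UGT2B15 copy may not be separate either.

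Over the gene bodies in GRCh38, the share of 50-base words, the read length used, that occurred more than once in the cluster was 27.7% in UGT2B28, 26.9% in UGT2B11, 18.7% in UGT2B15, 18.4% in UGT2B10 and 14.9% in UGT2B17. The share was 1.39% in UGT2B7 and 0.303% in UGT2B4, so the repeated words were unevenly spread over the members. Over the whole cluster it was 8.93%. How the aligner placed reads in such stretches is not given in the sources used here, so peaks that lie in them are uncertain in position and height.

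The first question was how much of each library's open chromatin fell in the cluster. The number of peaks in the interval ran from 34 to 190 in LNCaP libraries and from 77 to 117 in RES-A libraries. The LNCaP libraries with the fewest peaks in the interval also had the fewest peaks in all, and totals ran from 73254 to 275774 in LNCaP and from 169514 to 240262 in RES-A. The genome-wide background recovered from the peak lists was under 1 read per base in LNCaP DHT replicate 1 (0.739) and LNCaP ENZ replicate 1 (0.406), and these libraries had 51 and 34 peaks in the interval. In all other libraries it lay between 1.81 and 5.99 reads per base. Numbers of peaks are therefore given below as shares of the same library's peaks.

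The interval took a smaller share of the genome's open chromatin in RES-A, and so did the rest of chromosome 4. Per 10000 peaks of a library, LNCaP had 6.30 ± 0.67 (SD, n = 12) in the interval and RES-A had 4.81 ± 0.27 (SD, n = 12). The lowest LNCaP library, ENZ replicate 1, had 4.64, and the highest RES-A library had 5.20, so the sublines overlapped through that library alone. The difference was -1.48 per 10000 (two-sided permutation test with 100000 relabellings within treatments, p = 8e-05). The rest of chromosome 4 held 6.48% ± 0.26 of all LNCaP peaks and 5.04% ± 0.08 of all RES-A peaks (SD, n = 12 each), and no library of the former was as low as the highest of the latter. That difference was -1.44 percentage points (permutation test, p = 3e-05).

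Set against its own chromosome, the cluster did not stand apart. The interval held 0.961% ± 0.080 of chromosome 4 peaks in LNCaP and 0.945% ± 0.051 in RES-A (SD, n = 12 each). LNCaP libraries ran from 0.744% to 1.05% and RES-A libraries from 0.880% to 1.02%, and the difference of -0.0153 percentage points was well within this spread (permutation test, p = 0.623). Without the 2 shallow libraries this difference was -0.0341 percentage points (permutation test, p = 0.109).

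**Figure D1:**
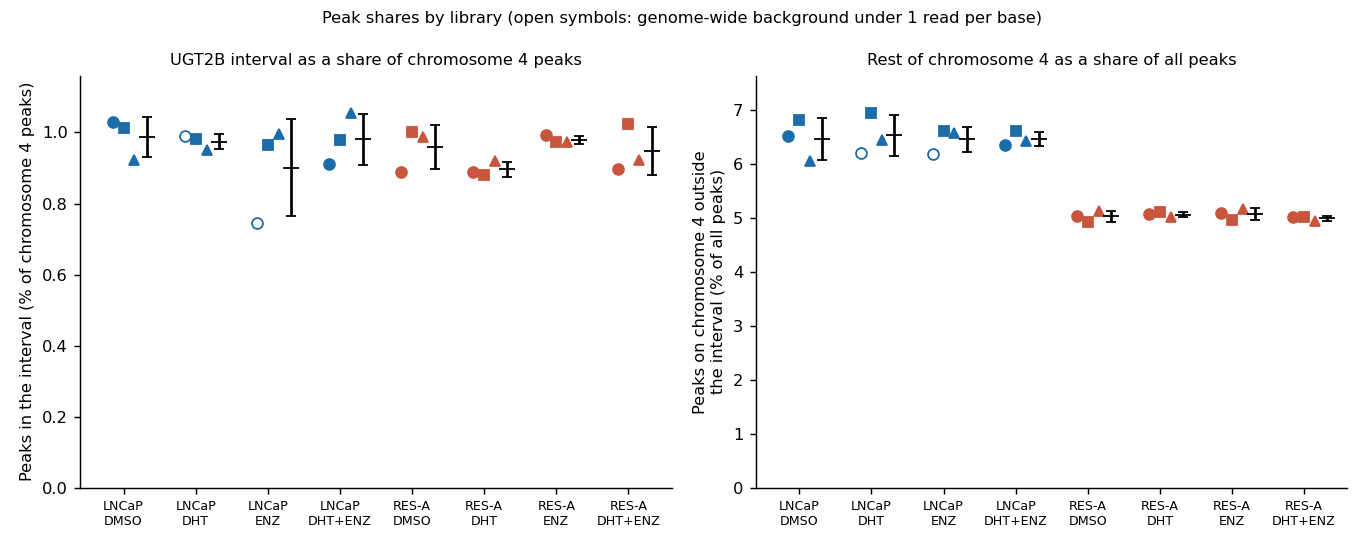
Share of each library's chromosome 4 peaks that overlap the UGT2B interval (left, %) and share of all peaks on the rest of chromosome 4 (right, %), for 8 groups with LNCaP in blue and RES-A in red. Circles, squares and triangles are replicates 1, 2 and 3, open symbols are the 2 shallow libraries, and bars are mean ± SD (n = 3); the interval's share runs from 0.744% to 1.05% with the sublines interleaved, while the chromosome's share splits them without overlap.

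The result depended on which neighbours the interval was set against. Among the peaks of the interval and the 10 Mb on either side of it, the interval held 7.29% ± 0.49 in LNCaP and 8.45% ± 0.48 in RES-A (SD, n = 12 each), a difference of 1.16 percentage points upwards (permutation test, p = 5e-05). The flanks themselves held 80.0 ± 5.4 per 10000 peaks in LNCaP and 52.2 ± 1.9 in RES-A. Among the 50000 top-ranked peaks of each library, the interval held 0.950% ± 0.061 of the chromosome 4 peaks in LNCaP and 1.03% ± 0.089 in RES-A, a difference of 0.0821 percentage points upwards (permutation test, p = 0.0193). Among those top-ranked peaks the interval held 25 to 31 peaks per LNCaP library and 20 to 27 per RES-A library.

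Windows of the same length over the genome gave the same picture. By peak summit, the interval held 0.0630% ± 0.0067 of LNCaP peaks and 0.0481% ± 0.0027 of RES-A peaks (SD, n = 12 each), a RES-A to LNCaP ratio of 0.764 (permutation test adjusted over all windows, p = 0.000184). Of 2270 windows tested over the genome, 34.1% were lower in RES-A by the same test, as were 67.8% of the 149 on chromosome 4. The median ratio of the chromosome 4 windows was 0.775, their range was 0.121 to 1.79, and 71 of 149 had a lower ratio than the UGT2B interval. The interval thus lay in the middle of its chromosome.

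The background under the peaks also differed between the sublines. The peak caller compares each peak with reads nearby, and in units of the library's genome-wide background the median local background of the interval's peaks was 1.51 to 1.83 in LNCaP and 1.21 to 1.47 in RES-A libraries, with no overlap. On the rest of chromosome 4 its median over libraries was 1.31 in LNCaP and 1.16 in RES-A, and the sublines did not overlap there either (lowest LNCaP library 1.25, highest RES-A library 1.21). Over the genome it was 1.17 to 1.35 in LNCaP and 1.20 to 1.33 in RES-A libraries. The fold enrichment is taken against this local background, whose part in the differences of fold enrichment below was not tested.

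Within treatments the interval's share of chromosome 4 peaks moved little, and 3 libraries against 3 cannot give a p below 0.1. In LNCaP the DMSO libraries averaged 0.988% ± 0.057, the DHT libraries 0.974% ± 0.021, the ENZ libraries 0.901% ± 0.137 and the DHT+ENZ libraries 0.981% ± 0.072 (SD, n = 3 each). In RES-A the same groups averaged 0.959% ± 0.061, 0.896% ± 0.020, 0.979% ± 0.011 and 0.948% ± 0.067, in that order. The low mean of LNCaP with ENZ came from the shallow replicate 1 at 0.744%, against 0.964% and 0.995% in the other two.

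DHT did not shift the cluster's share past the spread between libraries. The DHT - DMSO difference was -0.0140 percentage points in LNCaP (exact permutation test, p = 0.7) and -0.0633 in RES-A (exact permutation test, p = 0.2, 0.6 after adjustment over 6 treatment contrasts). Over both sublines it was -0.0386 (exact permutation test with 400 relabellings, p = 0.145), or -0.0549 without LNCaP DMSO replicate 3 (exact permutation test, p = 0.02), and the sublines' responses differed by -0.0493 (exact permutation test, p = 0.385). Between sublines the share with DHT differed by -0.0780 points in RES-A, with no overlap of the 3 and 3 libraries (exact permutation test, p = 0.1, the smallest possible, 0.4 after adjustment over 4 treatments).

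Along the interval the peaks were spread over all of it, with a thinner far end in RES-A. In the first 250 kb (chr4:69350000-69599999), the side of UGT2B17 and UGT2B15 in the gene order, lay 17.8% ± 2.2 of the interval's LNCaP peaks and 20.8% ± 2.2 of its RES-A peaks (SD, n = 12 each). In the last 250 kb (chr4:70350000-70599999), the side of UGT2A1 and UGT2A2, lay 17.6% ± 3.3 and 12.4% ± 1.6. The 3 blocks between held between 17.9% and 23.6% in LNCaP and between 18.3% and 25.4% in RES-A. These shares are descriptions and were given no test.

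The longest stretch with no peak in any library was 24.5 kb (chr4:69440625-69465089). In RES-A the longest stretch was 49.8 kb (chr4:69373980-69423747), where LNCaP had 3 regions, and 9 of the 12 LNCaP libraries had a peak in at least 1 of them. The most frequent was present in 9 LNCaP libraries.

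Of the 484 regions in the interval, 19 were open in all 24 libraries (3.93%), against 3.94% of regions over the genome and 3.24% on the rest of chromosome 4. Another 240 (49.6%) appeared in a single library. Regions seen only in LNCaP numbered 250 and those seen only in RES-A numbered 77. The matching shares over the genome and chromosome 4 were not counted, so this split cannot be read as a trait of the interval. The median library had 134 peaks in the interval in LNCaP and 97.5 in RES-A. The median region was 181 bp long (range 100 to 1338 bp).

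The 5 regions open in every library with the highest mean enrichment mark the constant open sites of the cluster. Values for them are the fold enrichment of the library's highest peak over the local background. The region chr4:69536020-69536901 was the highest, at 5.79 to 12.1 in LNCaP (median 10.9) and 9.32 to 12.8 in RES-A (median 11.1), and the sublines overlapped over most of that range. The region chr4:70175472-70176399 had 6.30 to 12.2 in LNCaP (median 8.15) and 10.3 to 12.6 in RES-A (median 11.4), and the region chr4:69771559-69772103 had 5.65 to 11.0 (median 7.66) and 9.09 to 13.3 (median 10.7). In both, the RES-A libraries started near the upper end of the LNCaP range.

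The region chr4:70573423-70574035, near the far edge, had 4.98 to 11.0 in LNCaP (median 7.81) and 8.05 to 13.5 in RES-A (median 10.4). The region chr4:69371986-69373175, near the first edge, had 6.41 to 11.1 (median 8.40) and 7.28 to 11.0 (median 9.65). By limma over all regions, chr4:70175472-70176399 was higher in RES-A by 0.48 on the log2 scale (SE 0.11, adjusted p = 0.00168), chr4:69771559-69772103 by 0.47 (SE 0.11, adjusted p = 0.00166) and chr4:70573423-70574035 by 0.45 (SE 0.14, adjusted p = 0.00901). Over the 29444 regions of the genome open in every library the median difference was 0.35. With each library centred on those regions the 3 differences were 0.12, 0.11 and 0.10 and none passed (limma, adjusted p = 0.241, 0.332 and 0.468). With pileup over the genome-wide background in place of fold enrichment, the last of them was -0.03.

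For the comparison of single regions, limma was fitted to the log2 fold enrichment of all 225412 regions with a peak in at least 6 libraries, with 0 entered where a library had no peak. A difference that rests on missing peaks is thus a distance from that floor and not a measured fold change. A group with no peak in any library has equal values and adds no spread to the SE, which all 8 groups share. The SE and p of such regions may therefore be too small. In the interval 129 of 484 regions entered, and on the rest of chromosome 4 13157 of 48240. The filter keeps regions frequent in either subline, so the counts describe the regions that entered and not all 484.

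Averaged over treatments, 38 of the 129 regions were higher in RES-A (29.5%) and 29 were lower (22.5%) at an adjusted p under 0.05. Over the genome 41.6% were higher and 15.9% lower, and on the rest of chromosome 4 32.6% were higher and 25.2% lower. The median difference was 0.10 in the interval, 0.18 on the rest of chromosome 4 and 0.37 over all regions tested. With each library centred on the regions open in all 24 libraries, the counts in the interval turned to 24 higher and 35 lower, and its median to -0.15, against a genome median of 0.10. Over the genome 58395 of 225412 regions were higher and 44393 lower in the centred fit. The rest of chromosome 4 was not counted in it. The direction of the balance within the cluster therefore rested on the scaling, while its place below the genome's median was the same under both.

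By block, the last 250 kb differed most in balance, with 9 of 21 regions lower in RES-A and 5 higher and a median difference of -0.24. The 4 other blocks each had 5 lower and 7 to 10 higher, with medians of -0.03 to 0.22.

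**Figure D2:**
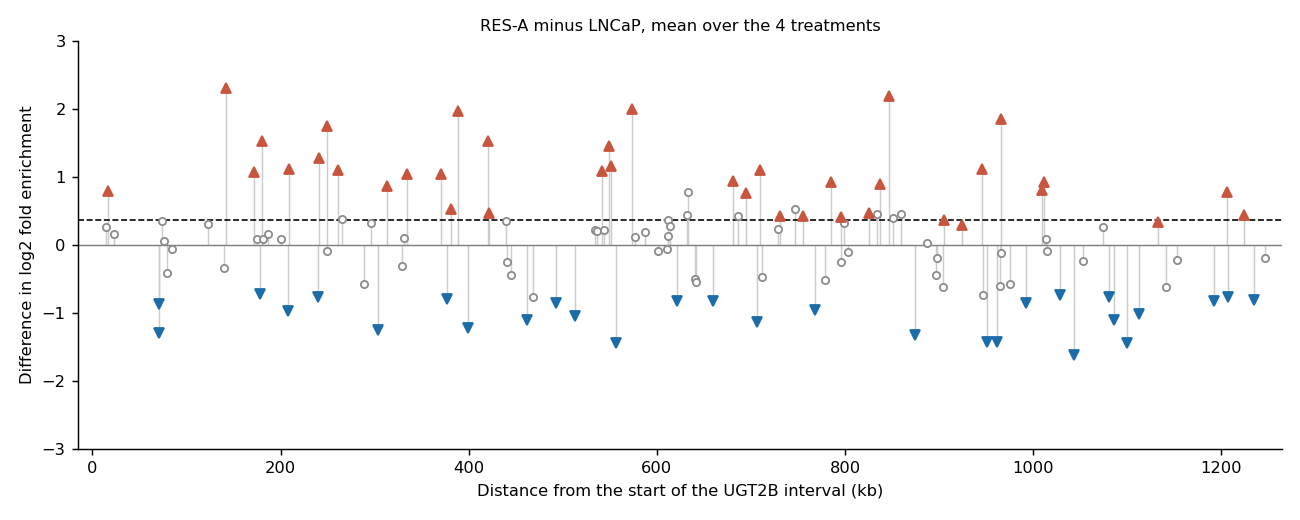
Difference in log2 fold enrichment, RES-A minus LNCaP averaged over the 4 treatments, for the 129 tested regions by distance from the start of the interval (kb). Red upward triangles are the 38 regions higher and blue downward triangles the 29 lower in RES-A at a limma adjusted p under 0.05, open circles did not pass, and the dashed line is the median of all tested regions of the genome (0.37); gains and losses alternate along the cluster.

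Regions with the clearest gain in RES-A were nearly absent from LNCaP. The region chr4:69491085-69491761 had a peak in all 12 RES-A libraries, at fold enrichments of 4.09 to 7.54 (median 5.40), and in 1 LNCaP library, DHT+ENZ replicate 3, at 2.52. The log2 difference was 2.31 (limma, SE 0.15, adjusted p = 7.64e-11). The region chr4:70196091-70196432 had a peak in all 12 RES-A libraries at 2.99 to 7.41 (median 5.02) and in 1 LNCaP library at 2.36. Its log2 difference was 2.20 (limma, SE 0.15, adjusted p = 3.42e-10), and as in the first region every RES-A library lay above the lone LNCaP peak.

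The region chr4:69923570-69924121 had peaks of 3.70 to 6.18 in all 12 RES-A libraries (median 4.61) and of 2.59 and 2.60 in 2 LNCaP libraries, ENZ replicate 2 and DHT+ENZ replicate 2. The log2 difference was 2.0 (limma, SE 0.18, adjusted p = 1.33e-08). The region chr4:69598637-69598938 had a peak in 11 RES-A libraries, at 3.22 to 4.82 (median 3.84), and in no LNCaP library. The log2 difference was 1.76 (limma, SE 0.17, adjusted p = 7.01e-08), and the RES-A library without a peak was DHT replicate 2. These gained regions met the filter of at least 6 libraries only through RES-A, where they were high. Most LNCaP libraries sat at the floor of 0, so the SE and p may be too small.

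Regions with the clearest loss were open in most LNCaP libraries and in almost no RES-A library. By treatment, those named below all passed with DMSO and with DHT+ENZ, and none passed with ENZ. With DHT only chr4:70392772-70393575 passed (limma, adjusted p = 0.0134). The region chr4:70311850-70312271 had a peak in 1 of 3 LNCaP DHT libraries, and its difference with DHT was -0.66 (limma, adjusted p = 0.301). The region chr4:70392772-70393575 had peaks of 2.64 to 5.64 in 10 of 12 LNCaP libraries (median 3.94) and in no RES-A library, with a log2 difference of -1.62 (limma, SE 0.26, adjusted p = 3.37e-05). The region chr4:69906231-69906906 had peaks of 2.50 to 4.36 in 10 LNCaP libraries (median 3.30) and in no RES-A library, with a log2 difference of -1.45 (limma, SE 0.20, adjusted p = 6.83e-06). The 2 LNCaP libraries without a peak there were the 2 shallow ones.

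The region chr4:70311850-70312271 had peaks of 3.25 to 4.81 in 9 LNCaP libraries (median 3.53) and in no RES-A library, with a log2 difference of -1.43 (limma, SE 0.23, adjusted p = 3.67e-05). The region chr4:70224465-70225312 had peaks of 2.42 to 4.59 in 10 LNCaP libraries (median 3.32) and in RES-A in DMSO replicate 2 alone, at 2.73, with a log2 difference of -1.33 (limma, SE 0.23, adjusted p = 7.39e-05). The lost regions likewise met the filter of at least 6 libraries only through LNCaP, and the RES-A libraries at the floor added little or no spread to the SE.

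**Figure D3:**
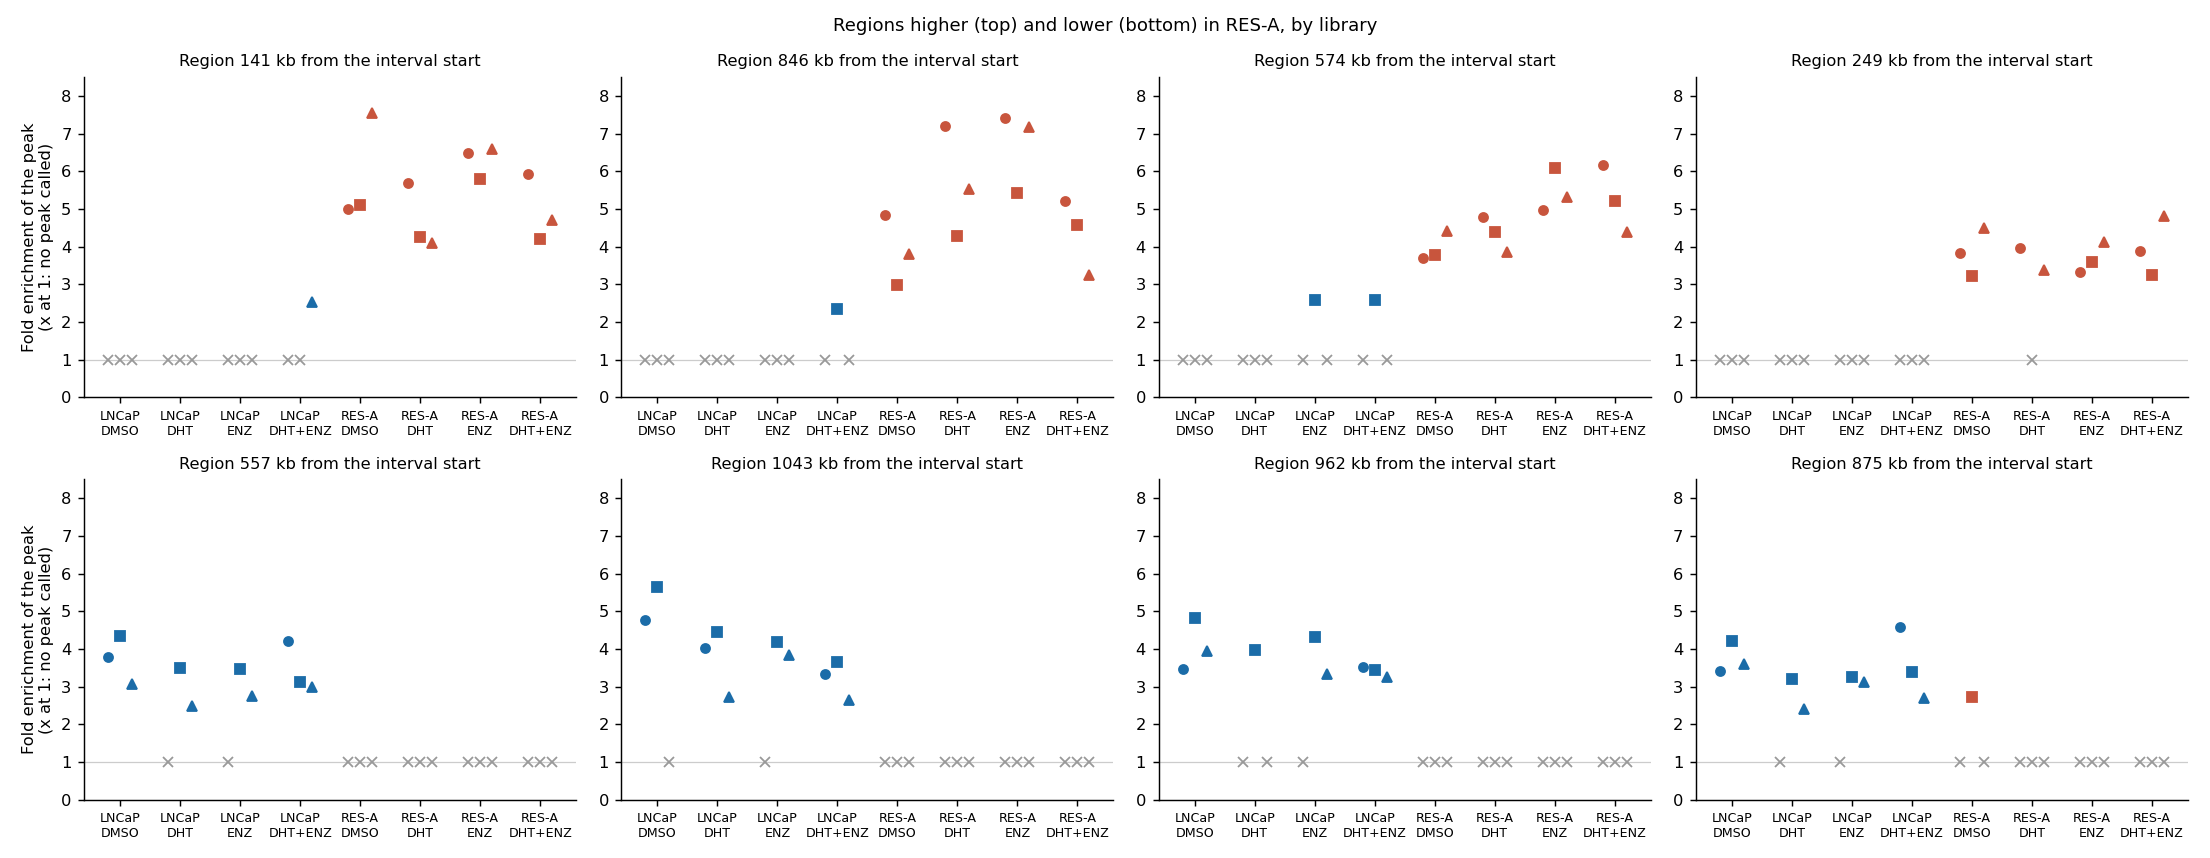
Fold enrichment of the highest peak in each of the 24 libraries for the 4 regions named as higher (top row, at 141, 846, 574 and 249 kb from the interval start) and the 4 named as lower in RES-A (bottom row, at 557, 1043, 962 and 875 kb). Blue is LNCaP, red is RES-A, symbols are replicates 1 to 3, and a grey cross at 1 marks a library with no peak; the top row has 0 to 2 LNCaP peaks a panel and the bottom row 0 or 1 RES-A peak.

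Taken per treatment, fewer regions passed, and the balance varied. With DMSO 10 regions were higher and 8 lower in RES-A, against 11.8% and 5.56% of the genome's regions. With DHT 16 were higher and 4 lower (genome 19.6% and 2.91%), and with ENZ 19 were higher and 1 lower (genome 19.5% and 2.69%). With DHT+ENZ 8 were higher and 12 lower (genome 11.2% and 7.0%). Higher regions were thus 7.75% of the 129 for DMSO, 12.4% for DHT, 14.7% for ENZ and 6.2% for DHT+ENZ, and lower ones 6.2%, 3.1%, 0.775% and 9.3%. On the rest of chromosome 4 higher regions were 8.4% for DMSO, 14.6% for DHT, 14.5% for ENZ and 7.95% for DHT+ENZ. Lower ones there were 8.98%, 4.96%, 4.98% and 11.6%, so with DHT+ENZ lower regions outnumbered higher ones on the chromosome too. The shallow LNCaP libraries are in the DHT and ENZ groups, and without them the DHT counts were 18 higher and 16 lower. The genome's shares without them are not given here.

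Presence of a peak, which uses no enrichment value, was compared on regions with a peak in 6 to 18 libraries. Of 81 such regions in the interval, 21 were present more often in LNCaP and 13 more often in RES-A (Fisher's exact test, adjusted p under 0.05), which together are 42.0%. Over the genome 45.3% passed, 18.7% more often in LNCaP and 26.6% more often in RES-A. In the interval the larger group was thus the LNCaP one, and over the genome the RES-A one. Presence was not counted for the rest of chromosome 4, so this direction is not shown to be particular to the interval.

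The number of regions of the cluster that passed the test for DHT was small in the fit with equal weights. In LNCaP 1 of 129 regions was higher with DHT than with DMSO, and none was lower by limma, with 20 at an unadjusted p under 0.05. Over the genome 0.13% were higher and 0.516% lower. In RES-A 1 region was higher and 2 were lower, against 2.22% and 1.73% over the genome. These counts rested on the fit, and in LNCaP so did their balance. With libraries weighted by their spread, 2 regions were higher and 19 lower in LNCaP, and 3 higher and 9 lower in RES-A. With log2 background as a term the LNCaP counts were 2 higher and 8 lower, and without LNCaP DHT replicate 2 they were 2 higher and 6 lower. The genome's shares under these other fits are not given here, so these counts cannot be read as a trait of the interval. On average the LNCaP DHT libraries had lower fold enrichment over the whole genome, with a median DHT - DMSO difference of -0.33 over all tested regions and -0.37 over those of the interval. In RES-A these medians were -0.04 and 0.00.

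The region chr4:70153013-70153342 opened with DHT in both sublines and was the same region in each. In LNCaP its fold enrichment with DHT was 5.87, 5.24 and 4.17, and no library had a peak there with DMSO or with ENZ. With DHT+ENZ it was 3.58 in replicate 1 and no peak was called in the other two. In RES-A it was 6.48, 5.84 and 5.28 with DHT, and none of the 9 libraries given DMSO, ENZ or DHT+ENZ had a peak. All 6 libraries given DHT alone thus had the peak, above the 1 library given DHT+ENZ.

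The DHT - DMSO difference of this region was 2.33 on the log2 scale in LNCaP (limma, SE 0.34, adjusted p = 0.00209) and 2.55 in RES-A (limma, SE 0.34, adjusted p = 0.000133). The difference between the sublines' responses was 0.21 (limma, SE 0.48, adjusted p = 0.901). Adding ENZ to DHT changed it by -2.55 in RES-A (limma, SE 0.34, adjusted p = 0.000233), the single region of the interval to pass in that contrast, where 0.486% of the genome's regions were lower and 0.535% higher. In LNCaP the change was -1.72 (limma, SE 0.34, adjusted p = 0.0519), and the side of the threshold depended on the setting. It passed with each library centred (-2.05, adjusted p = 0.0114), with pileup over the genome-wide background (-2.82, adjusted p = 0.043), with libraries weighted (-1.63, adjusted p = 0.0018) and with no filter on libraries (adjusted p = 0.0288). It also passed without DHT+ENZ replicate 1, the library with the peak (-2.33, adjusted p = 0.000272), while without the 2 shallow libraries it was -1.61 (adjusted p = 0.102). The same DHT libraries enter both the DHT - DMSO and the DHT+ENZ - DHT differences. The region had a peak in 7 of 24 libraries, all given DHT or DHT+ENZ. It thus met the filter of at least 6 libraries only through groups where it was high, and groups without a peak added no spread to its SE.

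The region chr4:70462572-70462994 had no called peak with DHT in RES-A. Its fold enrichment with DMSO was 4.56, 3.78 and 4.01, and no peak was called in any of the 3 DHT or the 3 DHT+ENZ libraries. With ENZ it was 2.56 and 3.92 in replicates 2 and 3, and replicate 1 had no peak. The DHT - DMSO difference was -2.04 (limma, SE 0.41, adjusted p = 0.00653), and adding ENZ to DHT left the region without a peak. The RES-A DHT libraries had 169514 to 191488 peaks in all and the RES-A DMSO libraries 194848 to 204397. A small peak may thus be missed more easily with DHT, and the part of depth was not tested.

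In LNCaP the same region had the smallest p among those lower with DHT but did not pass. It was 4.32, 7.0 and 4.04 with DMSO, 2.17 and 2.56 in DHT replicates 2 and 3, and absent from the shallow DHT replicate 1. ENZ libraries had 4.31, 6.13 and 3.62, and DHT+ENZ libraries 4.58, 3.96 and 2.70. The DHT - DMSO difference was -1.49 (limma, SE 0.41, adjusted p = 0.108), and all 3 DHT libraries were below all 3 DMSO libraries. Without DHT replicate 2 the adjusted p was 0.0457, and with log2 background as a term in the fit it was 0.0248. The sublines' DHT responses there differed by -0.55 (limma, SE 0.58, adjusted p = 0.777). Between sublines the region differed with DHT+ENZ, where it was lower in RES-A by a log2 difference of -1.87 (limma, SE 0.41, adjusted p = 0.00308).

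The region chr4:69891836-69892116 was open in RES-A alone. It was 3.59, 3.51 and 3.80 with DMSO, 3.67, 4.46 and 3.32 with ENZ and 3.33 in replicate 1 with DHT+ENZ, and no DHT library had a peak. The DHT - DMSO difference in RES-A was -1.86 (limma, SE 0.32, adjusted p = 0.00184). With a peak in 7 of 24 libraries, this region too met the filter only through groups where it was open. The lower peak totals of the RES-A DHT libraries apply here as well. No LNCaP library had a peak, so no response could be measured there and the sublines' responses could not be compared.

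**Figure D4:**
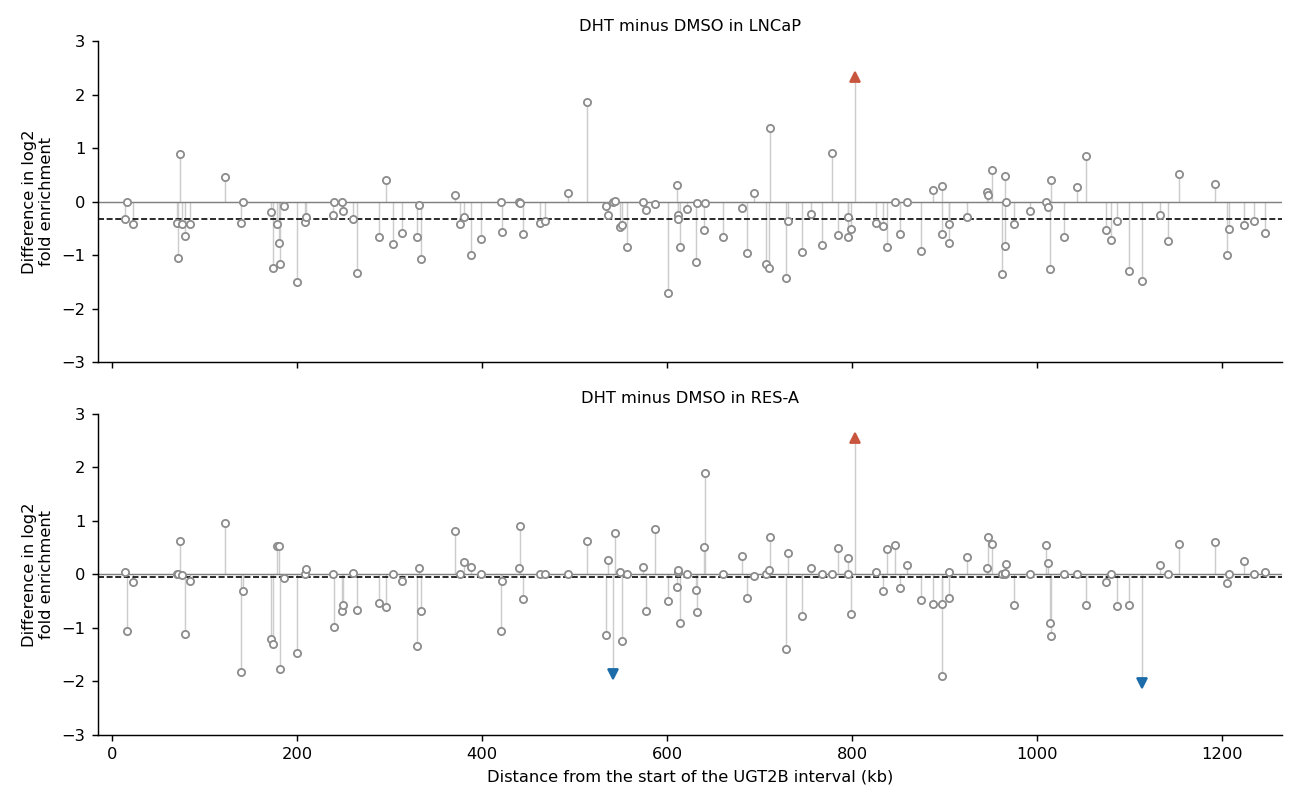
Difference in log2 fold enrichment, DHT minus DMSO, for the 129 tested regions by distance from the start of the interval (kb), in LNCaP (top) and RES-A (bottom). Filled triangles passed the limma test (1 up in LNCaP, 1 up and 2 down in RES-A), open circles did not, and the dashed lines are the genome medians (-0.33 and -0.04); the region that rose lies at 803 kb in both panels.

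**Figure D5:**
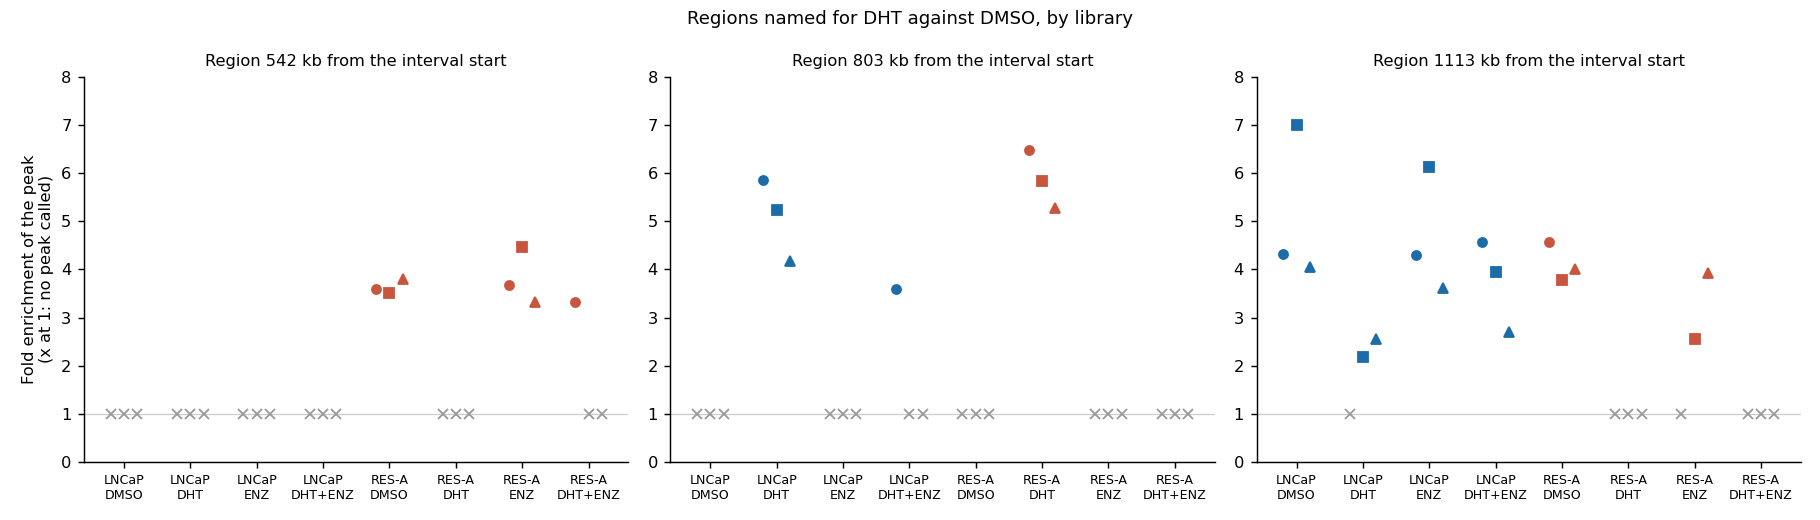
Fold enrichment of the highest peak in each of the 24 libraries for the regions at 542, 803 and 1113 kb from the interval start. Blue is LNCaP, red is RES-A, symbols are replicates 1 to 3, and a grey cross at 1 marks no peak; the middle panel shows peaks in all 6 DHT libraries and in 1 DHT+ENZ library.

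Below the test's threshold, separation of the 3 DHT from the 3 DMSO libraries was counted over the 129 regions. In LNCaP 22 regions had all DHT libraries below all DMSO libraries (17.1%, genome 16.7%) and 3 had them above (2.33%, genome 1.07%). In RES-A 13 had them below (10.1%, genome 13.0%) and 11 above (8.53%, genome 9.41%). In both sublines 6 were below (4.65%, genome 3.71%) and 1 was above (0.775%, genome 0.566%), the latter being chr4:70153013-70153342. These shares were near those of the genome.

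Of the 6 regions below in both sublines, chr4:70462572-70462994 is described above, and the other 5 did not pass limma in either subline. Examples in the first 250 kb, chosen after their values were seen, are the following. The region chr4:69428662-69429127 had fold enrichments of 8.11, 9.31 and 5.76 with DMSO and 4.94, 4.95 and 4.64 with DHT in LNCaP. In RES-A it had 3.76, 7.25 and 4.51 with DMSO, and with DHT 3.55 and 3.37 and no peak in replicate 1. With DHT+ENZ it was 5.96 to 6.67 in LNCaP and 5.00 to 7.39 in RES-A. The adjusted p of its DHT - DMSO difference was 0.404 in LNCaP and 0.13 in RES-A (limma).

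The region chr4:69531041-69531603 had 4.68, 5.10 and 4.42 with DMSO in LNCaP, and with DHT 3.23 and 2.91 and no peak in the shallow replicate 1. In RES-A it had 4.15, 4.93 and 6.03 with DMSO, and with DHT a peak of 3.13 in replicate 3 alone. The DHT - DMSO difference was -1.16 in LNCaP (limma, adjusted p = 0.262) and -1.77 in RES-A (limma, adjusted p = 0.0606). With ENZ in place of DHT the RES-A libraries had 3.90, 5.13 and 4.38, which overlapped the DMSO libraries. The tested region chr4:69530470-69530889, just before this one, went the other way in RES-A. Its fold enrichment there was 5.21 to 7.37 with DHT and at most 5.02 with DMSO. The DHT - DMSO difference of this neighbour was 0.52 in RES-A (limma, adjusted p = 0.901) and -0.76 in LNCaP (limma, adjusted p = 0.447). A shared loss with DHT is thus not shown for the stretch that holds both regions.

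With ENZ alone no tested region of the interval passed against DMSO in either subline (limma, 5 regions at an unadjusted p under 0.05 in LNCaP and 4 in RES-A), where 0.0648% and 0.0186% of the genome's regions passed. For ENZ added to DHT none passed in LNCaP (limma, 18 at an unadjusted p under 0.05, genome 0.108%). For the difference of the DHT response between sublines none passed (limma, 5 at an unadjusted p under 0.05, genome 0.338%). With libraries weighted, 3 passed for ENZ in LNCaP, 13 for ENZ added to DHT in LNCaP, 12 of them higher, and 6 for the difference of the DHT response. The genome's shares in the weighted fit are not given here.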

How the data were processed

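FAIRE-seq libraries of LNCaP and RES-A were deposited as 24 peak lists, 1 per library, in 8 groups of 3 biological replicates. Per the methods and the submitters' processing notes, the authors aligned 50 bp single-end reads to hg19 with BWA 0.7.8-r455, marked duplicates with Picard 1.118 and called peaks with MACS2 2.1.0; the options and any control library are not given in the sources used here. Each deposited list gives the pileup signal at the summit, the −log10 of the p and q values, and the fold enrichment, a ratio of pileup to local background, with 1 read added to both by the peak caller. Read totals are unknown, so depth was judged by the lowest local background of each list.

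Peaks overlapping the interval were counted as shares of the same library's peaks and compared by permutation tests. Peaks of all libraries were merged into regions; regions with a peak in at least 6 libraries were fitted with limma 3.58.1 in R 4.3.3 on log2 of the highest fold enrichment, with 0 where no peak was called, and Benjamini-Hochberg adjustment over all 225412 regions in each contrast (threshold 0.05). Presence was compared by Fisher's exact test. Statistics were tested on simulated data. For limma these held normal noise without the floor at 0, so that check does not cover regions with missing peaks. Regions named are up to 5 of those open in all 24 libraries with the highest mean, up to 4 per direction with the smallest p for the subline, and up to 4 per direction for DHT in each subline, or 1 where none passed. The interval, the genes and these rules were chosen with earlier results of these data known. Same-numbered replicates were checked for pairing: deviations from group means over regions correlated between -0.067 and 0.070 for the sublines, -0.16 and 0.36 within LNCaP and -0.079 and 0.076 within RES-A. The numbers were not used as pairs in the main fits. Within LNCaP 9 of 18 pairs correlated above 0.1, and libraries with different numbers were not compared, so pairing there was not settled. Promoters and gene order came from RefSeq (GRCh38.p14). Alternatives covered the peaks used, the edges and reference of the interval, scaling, filters, library weights, a replicate block and leaving out each library; leaving out both libraries with a background under 1, and a fit with log2 background as a term, were added after seeing the data.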

Additional observations from a re-analysis of the deposited data

Results flagged for a closer look

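The region chr4:69730208-69731400, open in all 24 libraries, had DHT libraries below all DMSO libraries in LNCaP and above them in RES-A. In LNCaP its fold enrichment was 7.76, 7.68 and 6.86 with DMSO and 6.62, 5.64 and 6.10 with DHT. In RES-A it was 8.06, 9.23 and 9.19 with DMSO and 11.1, 10.3 and 9.55 with DHT. The sublines' DHT - DMSO differences, -0.28 and 0.23 on the log2 scale, differed by 0.51, which did not pass (limma, adjusted p = 0.61). Over the regions open in every library of the genome the same difference between sublines had a median of 0.36. The median DHT - DMSO difference over them was -0.38 in LNCaP and -0.03 in RES-A. By library, the LNCaP medians of log2 fold enrichment were 2.51 (the shallow replicate 1), 2.90 and 2.58 with DHT. With DMSO they were 3.10, 3.21 and 2.84, so the groups overlapped.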

How the results depend on the processing

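The lower share of the interval per 10000 peaks, that of the rest of chromosome 4 and the window result kept their direction and side of the threshold under every alternative run for them. So did the log2 differences of the regions named for the subline or for DHT, in the contrast they were named for, under the alternatives that held them. The exception was chr4:70462572-70462994 with DHT in LNCaP, which passed with log2 background as a term (-1.48) and without LNCaP DHT replicate 2 (-1.63). The fit on regions open in all 24 libraries held none of these regions. Absent peaks were entered as 0 in every fit, so where a group had few or no peaks a kept direction was nearly fixed in advance. For the regions open in all libraries, the 3 subline calls were lost with libraries centred (0.12, 0.11 and 0.10). Of the 2 that had not passed, chr4:69536020-69536901 (0.16) turned to -0.19 with libraries centred, and chr4:69371986-69373175 (0.16) to -0.20 with libraries centred and -0.0698 with pileup over the genome-wide background, where chr4:70573423-70574035 turned to -0.0271. For chr4:70153013-70153342, DHT+ENZ - DHT in LNCaP ran from -2.33 to -1.41 leaving out 1 library and passed in 4 of these 24 fits and 4 other settings, and the difference of the sublines' DHT responses (0.21) turned to -0.32 centred and -0.38 with that pileup. The interval's share of chromosome 4 peaks, RES-A minus LNCaP, was -0.0153 percentage points and turned upwards with the 50000 top-ranked peaks (0.0821), with base pairs covered (0.0264), with the interval 100 kb narrower on both sides (0.0061) and against 10 Mb on either side (1.16). The cause was not tested. The same difference within DMSO turned to 0.0450, 0.0278 and 1.05 with the top-ranked peaks, base pairs and 10 Mb flanks. Within DHT it turned to 0.0463 with the top-ranked peaks and 0.719 with the flanks. Within DHT+ENZ it turned to 0.137, 0.0124 and 1.26 with the top-ranked peaks, base pairs and flanks, and within ENZ to -0.00061 without the 2 libraries with a background under 1.

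DHT - DMSO in LNCaP, -0.0140, turned to 0.0105 with peaks of q under 0.01, 0.0139 with the top-ranked peaks and 0.00868 with the interval 100 kb wider. DHT+ENZ - DHT in LNCaP, 0.00675, turned to -0.0657 with the top-ranked peaks, -0.0169 with base pairs, -0.0377 with the wider interval and -0.0281 against the flanks. In RES-A, DHT - DMSO turned to 0.0152 and ENZ - DMSO to -0.00386 with the top-ranked peaks, and the latter to -0.00224 with base pairs. DHT over both sublines turned to 0.0146 and the difference of the sublines' responses to 0.00131 with the top-ranked peaks. None of these turned values passed a test, and within a subline 3 against 3 libraries cannot. DHT over both sublines, where the 400 relabellings can, passed without LNCaP DMSO replicate 3 (-0.0549, exact permutation test, p = 0.02).

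Counts of regions passing limma moved by over 1.5 times as follows. They are counts in the interval, without the genome's share under the same setting, and cannot be read as particular to it. With q under 0.01, DHT - DMSO called 2 in LNCaP and 5 in RES-A. Without the 2 shallow libraries, the sublines differed in 34 regions with DHT and 32 with DHT+ENZ, DHT - DMSO called 7 in RES-A, and DHT+ENZ - DHT called 2 there. Centred, DHT - DMSO called 2 and DHT+ENZ - DHT 1 in LNCaP, and pileup over the genome-wide background called 1 in the latter. With no filter on libraries, DHT - DMSO called 2 in LNCaP and 6 in RES-A, DHT+ENZ - DHT 2 and 3, and the difference of responses 1. Of the regions open in all 24 libraries, which are 19 here, 13 passed for the subline, 0 with DMSO, 12 with DHT, 7 with ENZ and 2 with DHT+ENZ, while DHT - DMSO called 4 in LNCaP and 0 in RES-A, and DHT+ENZ - DHT 0 in RES-A. With libraries weighted, the sublines differed in 43 with DMSO, 58 with DHT, 57 with ENZ and 36 with DHT+ENZ; DHT - DMSO called 21 in LNCaP, 19 of them lower, and 12 in RES-A; ENZ - DMSO called 3 in LNCaP, DHT+ENZ - DHT 13 in LNCaP and 3 in RES-A, and the difference of responses 6. With log2 background as a term, the sublines differed in 31 with DMSO, 37 with DHT and 34 with ENZ, DHT - DMSO called 10 in LNCaP and 6 in RES-A, DHT+ENZ - DHT 2 in RES-A and the difference of responses 1. Presence called 19 regions when those in at least 2 libraries were tested, in place of 34. The last library set and the background term were chosen after seeing the data.

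Leaving out 1 library at a time, the share difference between sublines ran from -0.0350 to -0.00679, and by treatment from -0.0613 to 0.00609 (DMSO), -0.0899 to -0.0703 (DHT), -0.00061 to 0.125 (ENZ) and -0.0703 to 0.00443 (DHT+ENZ). DHT - DMSO ran from -0.0466 to 0.00627 in LNCaP and -0.0981 to -0.0420 in RES-A, ENZ - DMSO from -0.133 to -0.00803 and -0.0147 to 0.0413, DHT+ENZ - DHT from -0.0300 to 0.0421 and 0.0144 to 0.0783, DHT over both sublines from -0.0560 to -0.0280, and the difference of responses from -0.0841 to -0.0167. Region counts ran from 61 to 75 for the subline, 14 to 32 with DMSO, 13 to 33 with DHT, 14 to 30 with ENZ and 12 to 25 with DHT+ENZ. They ran from 1 to 8 for DHT - DMSO in LNCaP, where the 8 came without DHT replicate 2, 3 to 7 in RES-A, 0 to 3 and 1 to 2 for DHT+ENZ - DHT, 0 to 1 for the difference of responses, and 32 to 40 for presence. The highest values with DMSO came without LNCaP DMSO replicate 3 (32), and those with DHT (33) and for DHT - DMSO in RES-A (7) without the shallow LNCaP ENZ replicate 1. With a replicate block the subline counts were 40 higher and 29 lower, chr4:70153013-70153342 had adjusted p = 0.00274 in LNCaP, and no call of a named region changed side. Of the pairs of same-numbered libraries, 9 of 18 within LNCaP and none elsewhere correlated above 0.1. Shallow libraries miss small peaks, so an absent peak there is not evidence of closed chromatin.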
